A study of Mus musculus with 7 samples.

Results

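The variable (V) segments of the immunoglobulin kappa light chain were described in whole bone marrow. The mice were females, 5 to 6 months old, and gave 3 libraries with the genotype label Aim2 knock out (KO) and 4 with the label wild type (WT). By its title, the study asked about fat cell formation in marrow after loss of Aim2. The segments were chosen as genes of the GENCODE M21 type for immunoglobulin V genes with a symbol that starts with Igkv and at least 10 estimated reads in at least 1 library. Of 100 annotated genes of this kind 87 met the rule, out of 35498 genes in all. Of the 13 left out, 3 had 0 reads in every library, and the highest were Igkv1-132 with 9, Igkv18-36 with 7 and Igkv9-129 with 5 reads. The lowest of those kept were Igkv3-3 with 11, Igkv4-69 with 13 and Igkv4-78 with 14 reads in their highest library. Values are estimated read counts by Salmon, and a level in CPM is a read count scaled to a common library size. The libraries held 20300468 to 21099972 reads. Whole marrow was profiled, so fewer cells of a type and less RNA per cell cannot be told apart, and it is not stated whether every library is a separate mouse. All p-values therefore measure only the spread between these libraries.

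A kappa light chain gene is assembled in developing B cells, when the RAG recombinase joins a V segment to a joining (J) segment upstream of the constant gene Igkc. The V segment encodes most of the part of the light chain that contacts antigen, so the set of V segments in use describes the light chain repertoire of the marrow. Plasma cells, which stay in the marrow for long times, make far more immunoglobulin mRNA per cell than other B lineage cells. V segments are grouped into families by sequence, and the first number in a symbol is the family. The second number counts from the J segments outward.

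Aim2, which encodes a sensor of DNA in the cytosol, was measured to check the labels. It was at 7.37, 2.26 and 2.67 CPM in KO libraries 1 to 3 and at 32.2, 27.8, 25.9 and 25.5 CPM in WT libraries 1 to 4. The deleted part of the gene is not given in the labels. Reads from haemoglobin genes amounted to 11.3 to 13.7% of the KO libraries and to 13.8 to 19.9% of the WT libraries, most in WT library 1. Their part in the results below was not tested.

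The 87 segments lay over 3.15 Mb of chromosome 6 (67555497 to 70704177, GRCm38), upstream of Igkj1 (70722562) and Igkc (70726435 to 70726966, plus strand). Their V exons were alike in sequence, which limits how well reads can be given to a single segment. The closest other Igkv segment was identical at a median of 92.9% of aligned bases (range 74.3 to 98.99%), and for 82 of 87 it belonged to the same family. Of the stretches of 31 bases in a segment's transcripts, a median of 51.6% occurred in no other gene (13.0 to 100%), and 41 segments were under 50%. Salmon splits shared reads between such segments by a model, so sums over a family are less exposed to that split than single segments.

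The 4 segments that passed the test of levels, all higher in KO, are shown first. Each is the end of the V exon with the 5′ part trimmed where the exon is longer than 300 bases, or the whole exon, 5′ to 3′ on the gene's own strand, from the GENCODE M21 transcripts (GRCm38). Capitals mark the bases that differ from the closest other Igkv segment.
Igkv8-16 (chr6:70386672-70386971, minus strand, against Igkv8-34): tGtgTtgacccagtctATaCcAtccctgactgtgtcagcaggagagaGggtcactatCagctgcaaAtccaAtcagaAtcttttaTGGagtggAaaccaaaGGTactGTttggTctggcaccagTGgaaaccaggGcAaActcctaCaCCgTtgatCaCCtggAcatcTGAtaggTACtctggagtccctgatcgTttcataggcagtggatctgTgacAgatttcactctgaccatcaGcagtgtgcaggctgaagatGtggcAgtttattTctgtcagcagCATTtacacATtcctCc
Igkv8-24 (chr6:70216858-70217157, minus strand, against Igkv8-30): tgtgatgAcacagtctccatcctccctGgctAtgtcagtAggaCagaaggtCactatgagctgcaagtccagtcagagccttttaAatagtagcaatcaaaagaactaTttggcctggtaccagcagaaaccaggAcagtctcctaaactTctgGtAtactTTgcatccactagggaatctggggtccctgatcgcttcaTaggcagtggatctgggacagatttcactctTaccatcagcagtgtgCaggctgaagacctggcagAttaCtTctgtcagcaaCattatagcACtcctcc
Igkv6-23 (chr6:70260409-70260706, minus strand, against Igkv6-15): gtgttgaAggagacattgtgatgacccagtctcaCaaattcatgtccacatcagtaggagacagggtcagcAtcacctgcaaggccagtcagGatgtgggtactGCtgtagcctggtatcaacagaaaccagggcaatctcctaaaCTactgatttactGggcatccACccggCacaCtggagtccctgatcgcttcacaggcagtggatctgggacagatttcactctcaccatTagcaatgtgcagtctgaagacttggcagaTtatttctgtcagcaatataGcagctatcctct
Igkv3-2 (chr6:70698768-70699067, plus strand, against Igkv3-1): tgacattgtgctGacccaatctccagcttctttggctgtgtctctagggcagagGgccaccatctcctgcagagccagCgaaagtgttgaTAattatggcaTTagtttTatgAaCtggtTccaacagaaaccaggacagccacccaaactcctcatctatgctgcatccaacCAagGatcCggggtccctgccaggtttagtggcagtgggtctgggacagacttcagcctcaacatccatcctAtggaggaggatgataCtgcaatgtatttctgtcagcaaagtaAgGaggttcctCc
Identity to the closest segment was 80.8% for Igkv8-16, 91.8% for Igkv8-24, 94.6% for Igkv6-23 and 92.9% for Igkv3-2. In the same order, 24.7%, 88.7%, 44.5% and 63.5% of their 31-base stretches occurred in no other gene. Igkv8-16 shared 75.3% of its stretches with Gm43218, an annotated V gene of the same strand (70240427 to 70240972) that held at most 5.90 reads in any library.

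The last 60 bases of the V exon are given for the segment that led each of the 7 libraries. They run into the third complementarity determining region, the part of the chain where V and J meet. Capitals mark the last in-frame cysteine codon of the V exon. In Igkv4-59 and Igkv4-55 it was followed by 25 bases, and in the other 5 by 23.
Igkv6-17 (KO library 1): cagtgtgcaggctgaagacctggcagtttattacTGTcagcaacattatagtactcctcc
Igkv4-59 (KO library 2): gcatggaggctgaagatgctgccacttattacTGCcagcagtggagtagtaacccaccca
Igkv1-88 (KO library 3): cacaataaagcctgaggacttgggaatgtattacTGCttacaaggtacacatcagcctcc
Igkv5-39 (WT library 1): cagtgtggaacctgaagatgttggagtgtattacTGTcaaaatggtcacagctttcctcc
Igkv8-28 (WT library 2): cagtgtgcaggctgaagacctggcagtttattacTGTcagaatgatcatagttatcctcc
Igkv1-122 (WT library 3): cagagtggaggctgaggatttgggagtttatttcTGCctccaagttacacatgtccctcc
Igkv4-55 (WT library 4): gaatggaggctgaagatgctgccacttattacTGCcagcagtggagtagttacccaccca
A cysteine codon of this kind was found in all 87 segments.

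Kappa V transcripts made up a larger share of the marrow's reads in every KO library than in any WT library. The 87 segments together took 0.196, 0.243 and 0.268% of the reads in KO libraries 1 to 3 and 0.0337, 0.0990, 0.144 and 0.0969% in WT libraries 1 to 4. The groups did not overlap, and WT library 1 was the lowest of all. The means were 0.236 ± 0.0364% (SD, n = 3) in KO and 0.0934 ± 0.0454% (SD, n = 4) in WT, a ratio of 2.52. Without the leading segment of each library, an alternative chosen after seeing the data, the ratio was 2.70. With WT library 1 left out, the log2 ratio went from 1.34 to 1.06. Since the segments were chosen with earlier results of these data known, the sum was not tested.

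The constant gene Igkc, which every kappa mRNA carries, followed the same order of groups. It was at 2234, 3485 and 3453 CPM in KO and at 708, 1302, 1812 and 1384 CPM in WT, with no overlap. Its log2 fold change (KO over WT) was 1.23 ± 0.30 (SE), which did not pass in edgeR's quasi-likelihood test (adjusted p = 0.144). The number of V reads per Igkc read was 0.855, 0.705 and 0.734 in KO and 0.518, 0.757, 0.783 and 0.706 in WT, so these groups overlapped. WT library 1 had the fewest V reads per Igkc read. Igkj1 to Igkj5, the joining segments, were listed at 0 in every library.

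**Figure D1:**
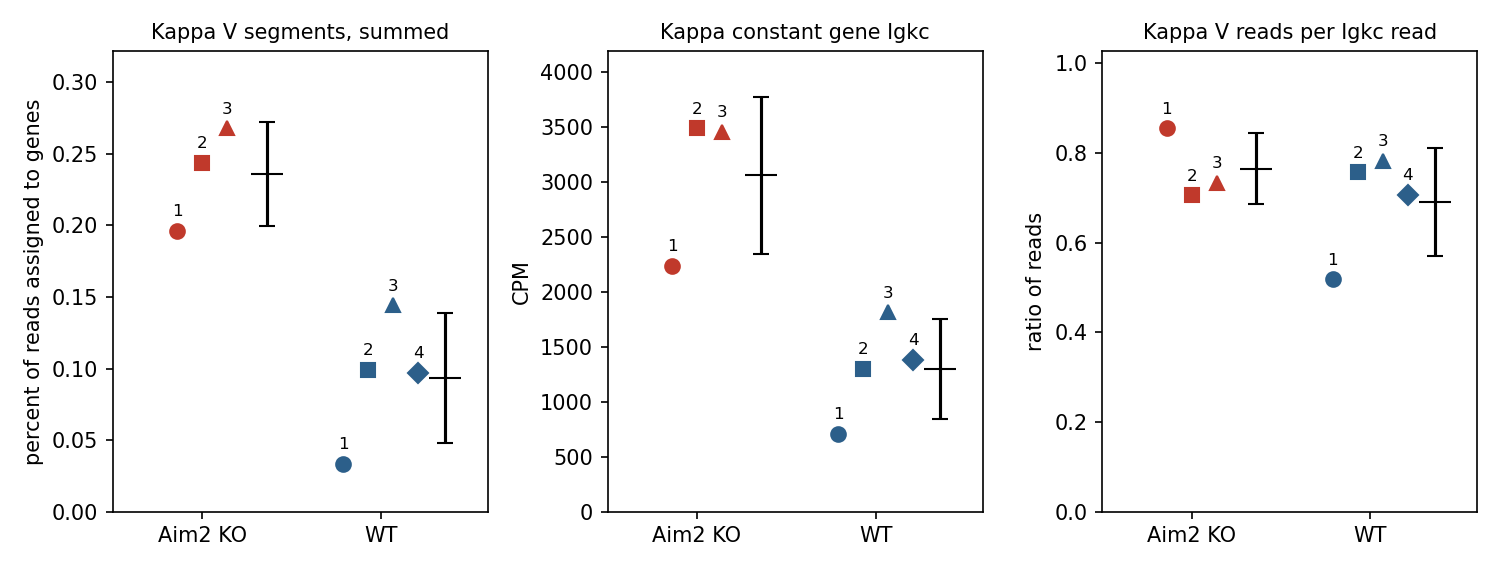
Kappa V level per library: the summed share of reads assigned to genes (left, percent), the level of Igkc (middle, CPM) and the ratio of kappa V reads to Igkc reads (right), with 1 point per library numbered as in the labels, and mean and SD as bars. The KO points lie at 0.196 to 0.268% and the WT points at 0.0337 to 0.144% on the left, while on the right the groups overlap.

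Most segments had a log2 fold change above 0, and few passed the test alone. Of the 87 segments 75 had enough reads to be tested, and 4 were higher in KO, 0 were lower and 71 did not pass (edgeR's quasi-likelihood test, Benjamini-Hochberg adjustment over 14238 genes). Over all genes tested, 0.478% were called higher and 0.169% lower. At an unadjusted p under 0.05, 35 segments were higher and 1 was lower, against 6.45% and 5.01% of all genes. The log2 fold change was above 0 for 63 of the 75 and below 0 for 12, with a median of 1.39 against -0.01 for all genes. Without a filter on low counts, all 87 segments had a value, of which 71 were above 0 and 16 below, with a median of 1.25. Some of the least used, such as Igkv3-3 and Igkv4-78, met the rule only through a KO library. Others, such as Igkv5-37 and Igkv7-33, met it only through WT libraries. The direction of such segments is tied to the rule. Among the tested segments, Igkv9-123 met the rule only through KO libraries, with at most 8 reads in WT. It is counted in the 35 that were higher. The 12 untested segments each took at most 0.161% of the kappa V reads of any library. DESeq2 called 13 segments higher and 0 lower, where 1.82% of all genes were called higher, and gave no adjusted p for 7 of the 75 (Igkv1-122, Igkv1-88, Igkv16-104, Igkv19-93, Igkv4-72, Igkv6-17 and Igkv8-28). In the other alternative test, voom with sample weights called 8 higher and 0 lower, where 1.29% were.

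All 4 called segments are named here with their values. Igkv8-16 was at 66.4, 10.4 and 18.4 CPM in KO and at 0.59, 0.78, 1.7 and 0.91 CPM in WT. KO library 1 was the highest, and no WT library came near a KO library. Fitted over all libraries, the log2 fold change came to 4.98 ± 0.69 (SE; adjusted p = 0.0286, edgeR), from 11.0 to 34.6 reads per library in WT and 216 to 1414 in KO. The other member of family 8 that passed, Igkv8-24, was at 15.3, 8.60 and 15.4 CPM in KO and at 3.48, 3.83, 3.88 and 5.31 CPM in WT. KO library 2 lay below the other KO libraries, and the groups did not overlap. For Igkv8-24 the fit gave a log2 fold change of 1.67 with an SE of 0.23 (adjusted p = 0.0289, edgeR).

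Igkv6-23, of family 6, was at 143, 46.1 and 48.96 CPM in KO and at 2.25, 4.85, 10.4 and 4.40 CPM in WT. KO library 1 again stood above the other KO libraries, and the groups did not overlap. The log2 fold change of Igkv6-23 was 3.85 ± 0.56 (SE; adjusted p = 0.0324, edgeR). Igkv3-2, a family 3 segment near the J end of the locus, was at 59.9, 27.3 and 26.7 CPM in KO and at 3.54, 9.74, 5.28 and 3.92 CPM in WT. That gave 2.75 ± 0.41 on the log2 scale (SE; adjusted p = 0.0352, edgeR), also highest in KO library 1. All 4 segments lie in the J-proximal part of the locus, which holds 29 of the 87 segments by the split used below. A link between position and these calls was not tested.

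These calls lay near the threshold. When 1 library was left out at a time, Igkv8-16 passed in 3 of 7 fits and Igkv8-24, Igkv6-23 and Igkv3-2 in 2 each, with adjusted p up to 0.126 (edgeR). Of the 4 called segments, 1 passed without KO library 1, 2 without KO library 2, 3 without KO library 3, 0 without WT library 1, and 1 each without WT library 2, 3 or 4. In these fits the log2 fold change was 3.84 to 5.40 for Igkv8-16, 1.53 to 1.89 for Igkv8-24, 3.11 to 4.36 for Igkv6-23 and 2.26 to 3.16 for Igkv3-2. The lowest values of Igkv8-16, Igkv6-23 and Igkv3-2 were those without KO library 1. With voom, Igkv8-16 had an adjusted p of 0.0889 and the other 3 passed.

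Levels without overlap between the groups were found for 19 of 87 segments, all higher in KO. Of the 75 tested segments 18 were of this kind and 0 were lower, while 6.95% of all genes tested lay higher and 5.94% lower in every KO library. The untested one, Igkv3-3, had 4, 11 and 2 reads in KO and at most 1 in WT. It met the rule only through KO library 2, so its direction is tied to the rule. The same holds for Igkv9-123, 1 of the 18, with 40, 66 and 21 reads in KO and at most 8 in WT. Igkv8-34, also of the 18, had 19, 110 and 23 reads in KO and reached 10 reads in WT only in library 3. The count of 18 is therefore not free of the rule. Besides the 4 called segments the 18 included Igkv14-126, Igkv6-17, Igkv1-88 and Igkv5-48. Igkv5-48, one of the largest increases, was at 96.2, 138 and 44.6 CPM in KO and at 1.45, 7.32, 16.6 and 4.45 CPM in WT. It had a log2 fold change of 3.63 ± 0.67 (SE) and did not pass (adjusted p = 0.0692, edgeR). The fitted log2 fold change of Igkv1-88 was 8.36 ± 1.97 (SE; adjusted p = 0.139, edgeR). Its size rested on KO library 3, with 438 CPM there against 5.49 and 2.35 CPM in the other KO libraries and 0.19 to 0.81 CPM in WT. Without KO library 3 it was 3.12 and did not pass either (adjusted p = 0.0562, edgeR).

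Usage, the share of kappa V reads that a segment takes within a library, was compared in a separate fit, where calls depended on the tool. In a fit with the kappa V total of each library as the offset, 0 of 75 segments passed (edgeR's quasi-likelihood test), with 0.52% of all genes called in that fit. At an unadjusted p under 0.05, 12 segments had a higher share in KO and 9 a lower share, against 6.29% and 5.05% of all genes. The median log2 difference in share was -0.05, with 37 segments above 0 and 38 below. DESeq2 with the same offset called 4 segments higher and 4 lower, where 1.83% and 1.03% of all genes were called. The smallest adjusted p in edgeR, 0.068, belonged to Igkv5-48, which took 5.04, 5.61 and 1.76% in KO and 0.39, 0.74, 1.17 and 0.46% in WT. For Igkv8-16, with shares of 3.47, 0.42 and 0.72% in KO against 0.08 to 0.16% in WT, the usage fit gave a log2 difference of 3.84 (adjusted p = 0.0857, edgeR). Igkv8-24 took 0.35 to 0.80% in KO and 0.27 to 0.95% in WT, so its share overlapped although its level did not.

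Among the most used segments, some shares were lower in KO without passing. Igkv4-55 had the highest mean share of all, and it took 1.29, 1.17 and 4.21% in KO and 9.70, 5.83, 6.16 and 16.0% in WT. Those shares did not overlap, while its CPM levels did (24.6 to 107 in KO, 35.6 to 157 in WT). The usage fit gave a log2 difference of -2.08 for Igkv4-55 (adjusted p = 0.186, edgeR). Igkv12-89 took 0.50, 0.35 and 0.20% in KO and 1.15, 4.15, 1.36 and 0.66% in WT, with a log2 difference in share of -2.41 (adjusted p = 0.185, edgeR). In level, among segments that averaged 5 CPM or more, the largest decreases that the fit gave were in Igkv12-38, Igkv1-122, Igkv8-28, Igkv12-89 and Igkv8-19, with log2 fold changes of -4.32 to -1.14 and adjusted p of 0.436 to 0.764 (edgeR). All 5 had overlapping groups. Igkv12-38 was at 53.3 CPM in WT library 4 and at 0.05 to 4.99 CPM in all other libraries.

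Each library was led by a different segment. Igkv6-17 took 17.4% of kappa V reads in KO library 1 (95% Wilson interval 17.0 to 17.8%), Igkv4-59 took 22.3% in KO library 2 (21.9 to 22.6%) and Igkv1-88 took 17.3% in KO library 3 (16.9 to 17.6%). In WT, Igkv5-39 took 20.3% in library 1 (19.3 to 21.2%), Igkv8-28 took 16.2% in library 2 (15.7 to 16.7%), Igkv1-122 took 36.2% in library 3 (35.7 to 36.8%) and Igkv4-55 took 16.0% in library 4 (15.5 to 16.6%). The intervals cover counting error only, not the split of shared reads between segments. Of the leaders' 31-base stretches, 45.2, 13.0 and 99.7% occurred in no other gene for KO libraries 1 to 3. For the leaders of WT libraries 1 to 4 it was 84.2, 46.5, 67.7 and 21.8%. Each leader took a smaller share in the other libraries, to differing degrees. Igkv1-122 took 0.04 to 2.39% in the other libraries, Igkv8-28 took 0.12 to 0.74%, and Igkv1-88 took 0.01 to 0.29%. For Igkv6-17 the range was 0.40 to 2.31%, and for Igkv4-59 it was 0.17 to 4.40%. Igkv4-55 and Igkv5-39 differed from these, with more than 1% in every library.

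Usage was uneven over libraries for many other segments too. For 24 of the 87, a single library held more than 50% of the summed shares, and this library was KO 1 for 3, KO 2 for 7, KO 3 for 3, WT 1 for 1, WT 2 for 2, WT 3 for 4 and WT 4 for 4. For 22 segments no library held as much as 30%. A total of 46 segments exceeded 1% in some library, and 4 did so in every library, namely Igkv14-126, Igkv4-55, Igkv5-39 and Igkv10-96. Of these Igkv14-126 was the most even, with 4.66, 3.18 and 6.47% in KO and 6.41, 4.75, 3.95 and 7.87% in WT. It was the only segment among the 10 most used of every library, while 36 segments were in the top 10 of some library. Its level was 89.0, 78.2 and 164 CPM in KO and 23.5, 46.8, 56.0 and 77.0 CPM in WT, just without overlap (log2 fold change 1.12 ± 0.39, SE; adjusted p = 0.321, edgeR).

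Other segments of high mean share varied widely between libraries. Igkv5-39 took 8.40, 1.17 and 2.50% in KO and 20.3, 1.68, 1.61 and 1.78% in WT. Igkv4-59 took 0.17, 22.3 and 1.55% in KO and 0.75, 4.40, 1.15 and 2.82% in WT. Igkv6-17 took 17.4, 1.84 and 1.91% in KO and 1.46, 2.31, 0.40 and 0.56% in WT. Each of these 3 had its highest share in 1 library, well above the rest, on either side of the comparison. Igkv6-32 was at 5.69 and 4.66% in KO libraries 2 and 3 and at 11.3% in WT library 4, and at 0.07 to 1.59% in the others. Igkv4-70 ranged from 0.21 to 6.28%, Igkv3-5 from 0.55 to 7.83% and Igkv1-110 from 0.89 to 7.66%, with KO and WT libraries interleaved. The 10 segments of highest mean share held 43.8% of the reads on average, and 9 of them were also in the top 10 by share of TPM, which corrects for length.

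**Figure D2:**
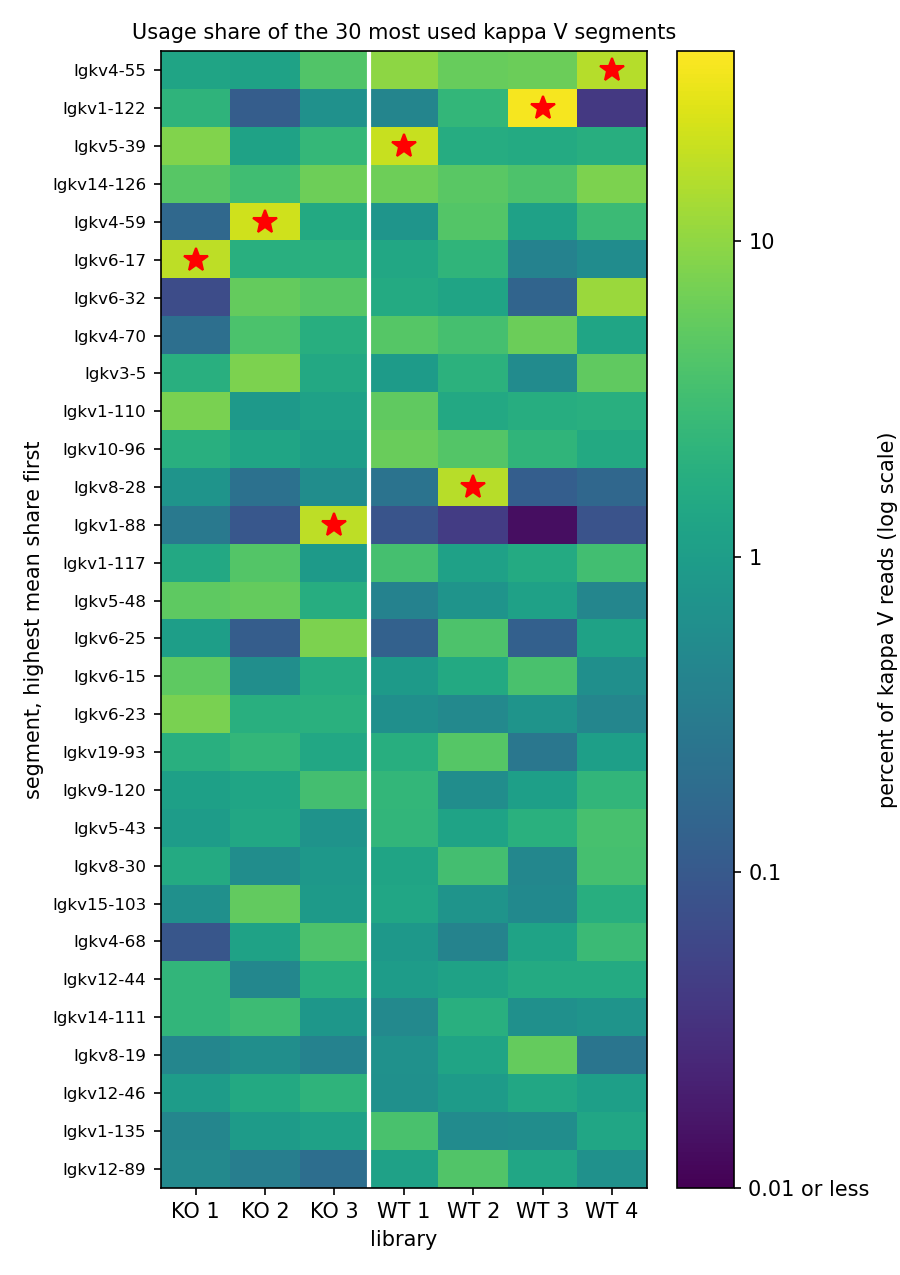
Usage share of the 30 segments with the highest mean share (rows) in each of the 7 libraries (columns, KO left of the white line), as percent of kappa V reads on a log colour scale, with a star on the leading segment of each library. The 7 stars lie in 7 different rows, from 16.0% (Igkv4-55 in WT library 4) to 36.2% (Igkv1-122 in WT library 3).

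The number of segments in effective use overlapped between KO and WT. The effective number, which is the exponential of Shannon's entropy and equals the number of equally used segments with that entropy, was 27.5, 27.8 and 34.2 in KO and 28.1, 35.5, 18.4 and 30.5 in WT. The means were 29.8 ± 3.78 (SD, n = 3) and 28.1 ± 7.17 (SD, n = 4). The inverse Simpson index, which weighs dominant segments more, was 15.8, 13.4 and 18.4 in KO and 14.2, 20.3, 6.68 and 16.7 in WT. WT library 3, which Igkv1-122 led, was the lowest on both measures. Without the leading segment of each library the effective number was 31.6 to 41.0 in KO and 34.6 to 41.7 in WT.

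Depth of the kappa V pool differed between groups, with 40706, 51159 and 56027 kappa V reads in KO and 6847, 20338, 29250 and 20423 in WT. Segments with at least 10 reads numbered 70, 78 and 80 in KO and 60, 70, 72 and 75 in WT. Scaled to the same 6847 reads, 77.3 to 81.1 segments would be seen with at least 1 read in KO and 77.7 to 83.2 in WT. The groups overlapped on both counts. A total of 53 segments had at least 10 reads in every library. The top 10 segments of a library held 55.8 to 64.7% of its kappa V reads in KO and 54.9 to 70.2% in WT. Reaching 50% took 6, 6 and 8 segments in KO and 6, 9, 4 and 7 in WT.

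**Figure D3:**
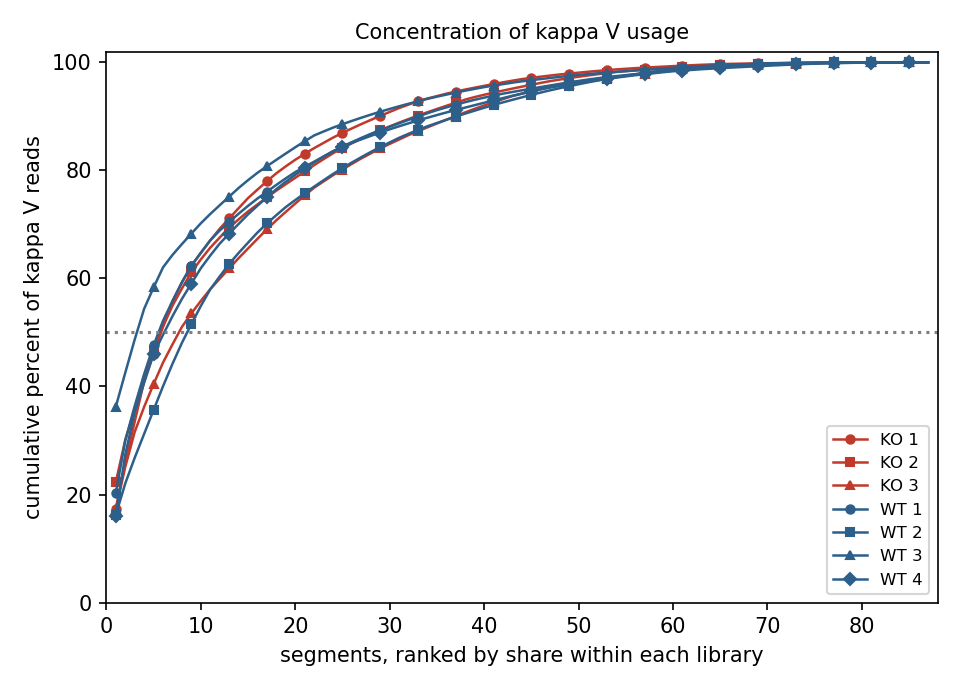
Cumulative percent of kappa V reads against the number of segments, ranked by share within each library (3 KO libraries in red, 4 WT libraries in blue, dotted line at 50%). The curve of WT library 3 starts highest, at 36.2%, and the curves of the other libraries lie together, with KO and WT interleaved.

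Distances in usage between libraries of the same group and of different groups overlapped. The Bray-Curtis distance of usage shares, which is 0 for equal shares and 1 for no shared segment, was 0.525 to 0.578 for the 3 pairs of KO libraries, 0.440 to 0.583 for the 6 pairs of WT libraries and 0.470 to 0.645 for the 12 pairs between groups. The top 10 lists of KO libraries had 2 to 3 segments in common, those of WT libraries 3 to 4, and those of a KO and a WT library 1 to 5. The pairs share libraries, so these values are a description.

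By family, 18 V families were present, and no family took a share that separated the groups. The largest by number of segments, family 4 with 21, took 4.86, 34.9 and 17.6% in KO and 20.2, 21.1, 20.2 and 26.6% in WT. KO libraries lay on both sides of all WT libraries there. Family 1 took 12.1, 6.43 and 21.4% in KO and 13.1, 5.76, 40.3 and 6.90% in WT, and its highest value was that of the library led by Igkv1-122. In family 6 the shares were 32.5, 10.9 and 19.9% in KO and 6.37, 10.9, 7.36 and 14.8% in WT, with means of 21.1 ± 10.8% (SD, n = 3) and 9.84 ± 3.81% (SD, n = 4). KO library 2 lay below WT library 4, so the groups overlapped. Without the leading segment of each library, family 6 took 14.0 to 24.1% in KO and 7.98 to 17.6% in WT.

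The remaining families of moderate size overlapped as well. Family 5 took 14.5, 8.28 and 5.17% in KO and 23.1, 3.76, 5.52 and 6.26% in WT. Family 8 took 7.56, 3.86 and 3.71% in KO and 4.15, 21.8, 7.15 and 5.27% in WT. Family 3 took 7.50, 11.8 and 6.61% in KO and 4.12, 7.60, 2.32 and 7.67% in WT. The single high values in families 5 and 8 belonged to WT libraries 1 and 2, which Igkv5-39 and Igkv8-28 led. Family 12 ranged from 2.61 to 4.93% in KO and from 3.26 to 9.27% in WT, and family 10 from 1.31 to 2.21% and from 1.86 to 6.57%. Family 14 was the most even of the larger families, with 7.15, 6.26 and 7.42% in KO and 7.20, 6.92, 4.78 and 8.91% in WT.

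Small families showed single-library peaks of the same kind. Family 15, which is Igkv15-103 alone, took 5.38% in KO library 2 and 0.51 to 1.79% elsewhere. Family 16, which is Igkv16-104 alone, took 3.25% in KO library 3 and 0.20 to 0.80% elsewhere. Family 19, Igkv19-93, ranged from 0.27 to 4.43%, with both ends in WT. Family 9 took 1.02 to 3.84% and family 17 took 1.28 to 4.24%. Family 2 reached 2.90% in WT library 4, and family 13 stayed at 0.18 to 0.76%. Families 7 and 11 took at most 0.127% in any library. The effective number of families was 8.76 to 9.67 in KO and 6.91 to 10.4 in WT.

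In level rather than share, families 3, 5, 6, 14 and 17 were higher in each KO library than in each WT library. Family 6 summed to 621, 268 and 505 CPM in KO and 23.4, 107, 104 and 144 CPM in WT, a ratio of means of 4.90. All 8 of its segments were tested and had a log2 fold change above 0, and 1 of them, Igkv6-23, passed. Family 3 summed to 143, 290 and 168 CPM in KO and 15.1, 74.9, 32.8 and 74.9 CPM in WT, and all 6 of its tested segments were above 0, with 1 called, Igkv3-2. In family 4, 13 of 18 tested segments were above 0, 5 were below and 0 passed. Family 8 had 7 of 9 above 0, and 2 passed, while its summed level overlapped (94.1 to 144 CPM in KO, 15.2 to 215 CPM in WT).

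**Figure D4:**
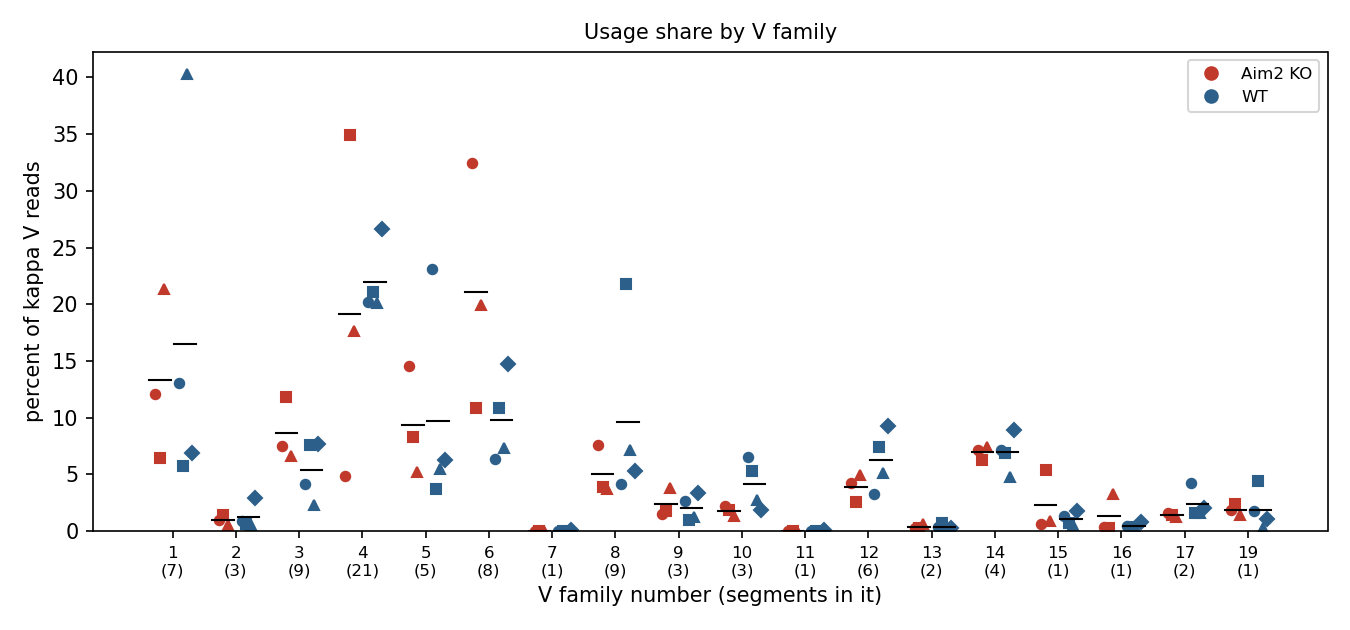
Usage share by V family, with 1 point per library (red KO, blue WT, 1 marker shape per library number) and short lines at group means, and with the number of segments under each family number. Groups overlap in all 18 families, and the highest point is family 1 in WT library 3 at 40.3%.

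Position in the locus was not part of the rule. Ordered by distance from Igkj1, the 87 segments were split into 3 equal groups of 29. The distal group took 29.4, 28.1 and 24.7% of kappa V reads in KO and 40.3, 32.9, 54.8 and 30.8% in WT, lower in each KO library. The means were 27.4 ± 2.44% (SD, n = 3) and 39.7 ± 10.9% (SD, n = 4). The difference in means was -12.3 percentage points, and -7.24 without WT library 3, where Igkv1-122 lies in the distal group. With the leading segment of each library left out, which was tried after seeing the data, the distal shares were 35.6, 36.2 and 29.9% in KO and 50.6, 39.3, 29.1 and 36.7% in WT, and the groups overlapped.

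The other positions did not separate the groups. The proximal group took 47.6, 26.6 and 30.3% in KO and 14.7, 40.8, 17.0 and 33.2% in WT, and the middle group 23.0 to 45.3% in KO and 26.3 to 45.0% in WT. Segments on the plus strand, which lie in the same orientation as Igkc, took 37.2 to 50.1% in KO and 30.7 to 52.0% in WT. Recombination with a segment in that orientation deletes the DNA between V and J, and with one on the minus strand it inverts it. Of the 29 distal segments 21 were on the plus strand, against 1 of the 29 middle and 12 of the 29 proximal segments.

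**Figure D5:**
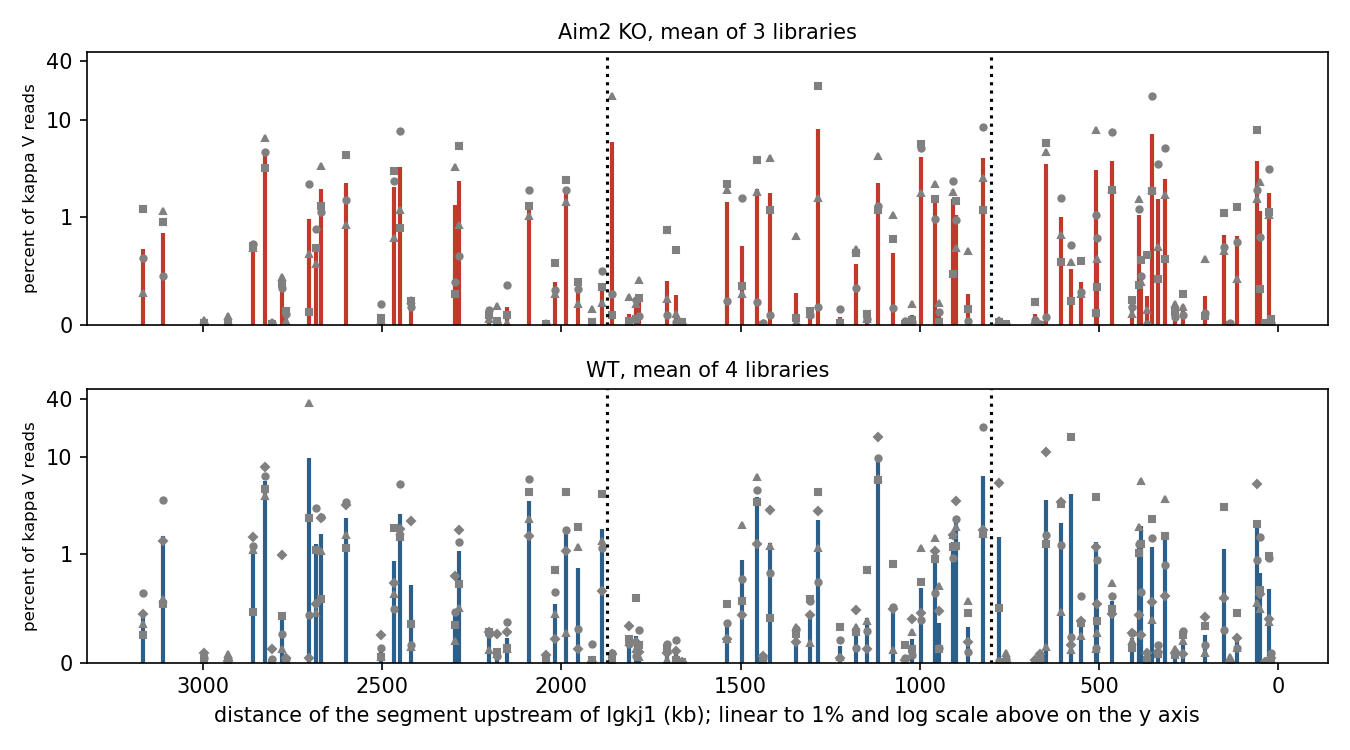
Usage share of each segment against its distance upstream of Igkj1 in kb, for KO (top) and WT (bottom), with lines at group means, grey points for single libraries and dotted lines between the distal, middle and proximal groups of 29 segments. The y axis is linear to 1% and logarithmic above, and the highest point is Igkv1-122 in WT library 3 at 36.2%.

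Genes that act beside the kappa V segments were read from the same fit, and 0 of them passed (edgeR's quasi-likelihood test over 14238 genes). In that fit 0.646% of all genes were called, and in lists this short a count of 0 is near that share. The direction differed between lists. B cell identity and receptor genes were on the opposite side from the kappa V levels, as their 15 tested members all had a log2 fold change below 0, with a median of -0.92, and summed to 268 to 418 CPM in KO and 526 to 810 CPM in WT, without overlap. For Pax5, which maintains B cell identity, the KO mean was 18.7 CPM (SD 5.40, n = 3) and the WT mean 43.2 CPM (SD 7.90, n = 4; adjusted p = 0.068, edgeR). Fcer2a, the low-affinity IgE receptor CD23 of mature B cells, lay at -1.56 on the log2 scale (adjusted p = 0.081, edgeR).

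Most plasma cell genes were on the side of the kappa V levels, though many of them overlapped between the groups. Of 12 tested members 10 had a log2 fold change above 0 and 2 below, with a median of 0.37, and they summed to 1018 to 1254 CPM in KO and 663 to 997 CPM in WT, without overlap. The log2 fold change of Xbp1, a transcription factor of the secretory programme, stood at 0.49 ± 0.13 (SE; adjusted p = 0.181, edgeR). Jchain, which links antibody units, was at 0.57 (adjusted p = 0.227, edgeR), and Prdm1, which drives plasma cell formation, at 0.59 (adjusted p = 0.204, edgeR). Slamf7 ran against the list at -0.98 (adjusted p = 0.137, edgeR) and was lower in each KO library, and Irf4 was at -0.09. Levels of Sdc1, Mzb1, Tnfrsf17, Derl3, Edem1, Fkbp11 and Irf4 overlapped between the groups. Jchain alone held 484 to 613 CPM of the sums in KO and 281 to 459 CPM in WT. The part of either list in the kappa V levels was not tested.

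Lambda light chain genes, the alternative to kappa, overlapped between the groups. Iglc1 to Iglc3 and Iglv1 to Iglv3 summed to 137, 570 and 166 CPM in KO and 147, 139, 121 and 160 CPM in WT, so KO library 2 alone was high. The log2 fold changes were 1.60 for Iglv1, 0.73 for Iglv2, 1.71 for Iglv3, 1.37 for Iglc1, 0.42 for Iglc2 and -0.32 for Iglc3, with adjusted p of 0.315 to 0.743 (edgeR). Iglj1 to Iglj3 were listed at 0. Of the constant-gene level of both light chains, kappa made up 96.3, 92.4 and 97.3% in KO and 87.8, 93.8, 95.4 and 93.4% in WT.

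Genes of light chain assembly and of the surrogate light chain did not pass either, with 3 of 14 above 0 and a median log2 fold change of -0.13. On the log2 scale, Rag1, a subunit of the recombinase, was at -1.07 ± 0.38 (SE; adjusted p = 0.342, edgeR) and its partner Rag2 at -1.33 ± 0.48 (SE; adjusted p = 0.350, edgeR). The surrogate light chain genes Vpreb1, Vpreb2 and Igll1, which pair with the heavy chain in precursor B cells, had log2 fold changes of -0.82, -0.36 and -0.71. Vpreb3, a related gene of B cell precursors, had a KO mean of 7.63 CPM (SD 3.14, n = 3) and a WT mean of 18.6 CPM (SD 8.63, n = 4; adjusted p = 0.265, edgeR). Dntt, which adds bases at joins, was at -0.01.

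Markers of other marrow cells also had 0 members past the test, where 0.646% of all genes were called. All 8 erythroid genes were below 0 and summed to 109545 to 141125 CPM in KO and 138619 to 220988 CPM in WT. Neutrophil genes were above 0 for 9 of 10, with sums of 22911 to 25093 CPM in KO and 17711 to 23069 CPM in WT. All 8 T cell genes were below 0, with sums of 56.4 to 74.5 CPM in KO and 78.3 to 100 CPM in WT, which did not overlap. Their part in the kappa V results was not tested.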

How the data were processed

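Marrow RNA was extracted on columns and made into strand-specific mRNA libraries, per the labels' protocols. FastQC 0.11.9, Salmon 1.7.0, DESeq2 and the build GRCm38.p6 are named in the submitters' processing notes. No source used here gives the options of Salmon or the annotation release. The authors deposited estimated counts, which need not be whole, and TPM values per transcript, which correct each transcript for its length and sum to a fixed total.

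Identifiers linked transcripts to GENCODE M21 genes. The 569 transcripts without a gene, which held up to 0.0662% of a library's reads, were left out. Estimated counts were summed per gene, rounded, filtered with filterByExpr (14238 genes left), scaled by TMM and tested with edgeR 4.0.16 (R 4.3.3) by genotype, with Benjamini-Hochberg adjustment and a threshold of 0.05. The usage fit was the same with the kappa V total as offset for kappa V rows. SE is the absolute log2 fold change over the square root of F. Shares, diversity, families and positions were computed from unrounded estimated counts. Expected segments at equal depth are hypergeometric.

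The segments and lists were chosen with earlier results of these data known. Named were all called segments, the 10 of highest mean share, the leader of each library, the 5 largest fitted increases and 5 largest decreases among those averaging 5 CPM or more, the members of the light chain lists, and a few of smallest p in the other lists. Igkv5-48 as the smallest usage p, Igkv10-96 and the families of 1 segment were named after their values were seen. Alternatives were RLE scaling, TMM without haemoglobin, immunoglobulin and mitochondrial genes, DESeq2 1.42.0, voom with sample weights (limma 3.58.1), no filter, limma on log2(TPM + 0.1) and log2(TPM + 1), a replicate block and leaving out each library. The fit was also run on counts simulated for each gene on its own, without shared reads, and no result above rests on that run. No pair of libraries in a group agreed within sampling noise (chi-square per degree of freedom 9.14 to 55.7). Reads were quantified against germline segments, and the effect of mutated V sequences on the counts was not tested.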

Additional observations from a re-analysis of the deposited data

Results flagged for a closer look

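In 10 of 46 groups of 4 WT libraries tested, 1 library stood apart from the other 3, with a gap to its nearest neighbour, as a share of the group's range, above Dixon's 95% critical value. Chance flags about 1 in 20 groups of normally distributed values, but the count cannot be set against that rate. Segments named for leading a library, such as Igkv1-122, Igkv5-39 and Igkv8-28, were picked from these same values. A family and the segment that fills it are also not independent. The groups of 3 KO libraries were not tested. By family, WT library 4 stood apart in family 2 (2.90% against 0.55 to 0.93%) and family 4 (26.6% against 20.2 to 21.1%), WT library 1 in family 5 (23.1% against 3.76 to 6.26%) and WT library 2 in family 8 (21.8% against 4.15 to 7.15%). By segment, WT library 3 stood apart in Igkv1-122 (36.2%), WT library 1 in Igkv5-39 (20.3%) and Igkv1-110 (5.32%), WT library 2 in Igkv8-28 (16.2%), and WT library 4 in Igkv6-32 (11.3%) and Igkv12-38 (5.45%).

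Annotated kappa V pseudogenes lay outside the rule, and some had more reads in 1 library than in the others. For 3 of them this was a KO library. Igkv3-11 had 37.5 reads in KO library 3 (at most 8.99 in WT), Igkv4-56 had 44 reads in KO library 2 (at most 2 in WT) and Igkv4-73 had 53 reads in KO library 3 (at most 5 in WT). The other KO libraries held 0 to 9 reads of each. For 2 others it was a WT library. Igkv2-116 had 63.5 reads in WT library 2 (at most 26.2 in KO) and Igkv4-77 had 16 in WT library 3 (at most 9 in KO). These differences were not tested.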

How the results depend on the processing

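The count of called segments was 4 with RLE scaling (0.562% of all genes called) and with TMM without the abundant genes (0.555%). It was also 4 on the scales log2(TPM + 0.1) (0.344%) and log2(TPM + 1) (0.351%). Without a filter it was 6 (0.594%), with DESeq2 13 (2.84%) and with voom 8 (2.14%). It was 2 with a replicate block (0.147%), neither of them among the 4, and 0 to 4 with 1 library left out (0.120 to 0.459%). To look for a pairing, each library's deviations from its group mean (log CPM) were correlated over all genes tested. These deviations correlated at 0.106, -0.028 and -0.267 for same-numbered KO and WT libraries. For the other KO and WT pairs the range was -0.213 to 0.255, so the numbers were not taken as a pairing. The numbers are those in the sample titles. The deposited files number the WT libraries differently, so the block rests on the titles. By usage, 0 segments passed in edgeR, against 8 with DESeq2 (2.85% of all genes called), 3 without a filter (0.574%), 1 with an offset that left out the 10 most used segments (0.569%), 3 with a replicate block (0.162%) and 0 to 3 with a library left out (0.113 to 0.459%). The cause of these differences was not tested.

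Fitted log2 fold changes of 5 named segments changed sign, none of them called. Igkv1-122 was at 0.56 and 0.44 on the scales log2(TPM + 0.1) and log2(TPM + 1) and at -3.78 to 1.25 with a library left out. Igkv8-28 was at 1.38 and 1.29 on these scales, 1.28 with the block, 0.20 with voom and -2.25 to 3.04 with a library left out. Igkv8-19 was at 0.44 and 0.41 on these scales and -1.52 to 0.94 with a library left out. Igkv4-70 was at -0.00075 with log2(TPM + 0.1), -0.49 with the block and -0.63 to 1.18 with a library left out, and Igkv4-59 at -0.084 to 3.70. The log2 ratio of the summed level stayed at 1.06 to 1.62 with a library left out. The difference in effective segments was 1.7 and changed sign without KO library 3 (-0.48), without WT library 3 (-1.53) and without the leading segments (-0.13). Differences in family share moved by less than 1 pooled SD of the libraries in all 162 alternatives, but their sign changed in 23 of these, over 11 of 18 families. Family 1 ran from -7.26 to 4.70 percentage points, family 4 from -10.8 to 4.26 and family 5 from -2.94 to 5.44.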
